A study of Nymphaea colorata and Nymphaea micrantha with 16 samples.

Results

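The enzyme labelled CYP75B1 is represented in the leaf transcriptome of the water lilies *Nymphaea colorata* (L-species) and *Nymphaea micrantha* (X-species) by 4 genes, NC7G0277740, NC7G0277620, NC7G0277710 and NC7G0277610. They are the genes that carry the label CYP75B1 in the flavonoid heat map of the study, and their ID numbers lie close together. All 4 were found among the 31475 genes of the expression table, and 3 of them passed the filter for testing. NC7G0277610 did not pass it. The filter asked for 1 FPKM in 2 or more libraries. NC7G0277620 met it only through *N. colorata* (6 of 8 libraries, and 0 of 8 in *N. micrantha*). NC7G0277710 met it only through *N. micrantha* (6 of 8 libraries, and 0 of 8 in *N. colorata*). The study chose the genes of that heat map as differentially expressed between the species in these same libraries, so a difference between the species in these genes is not independent evidence. Changes between leaf stages within a species were not used to choose them, but the filter bears on such changes. NC7G0277620 reached 1 FPKM in L1 to L3 and not in L4 (0.468 and 0.291). NC7G0277710 reached it in X1 to X3 and not in X4 (0.795 and 0.896). The falls of these genes to stage 4 are therefore not independent of the filter.

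CYP75B1 is the Arabidopsis name of flavonoid 3′-hydroxylase, a cytochrome P450 of the endoplasmic reticulum. In Arabidopsis it adds a hydroxyl group to the B ring of flavonoids, which turns kaempferol-type compounds into quercetin-type compounds and lies on the route to cyanidin pigments. Chalcone synthase and flavanone 3-hydroxylase act before it, flavonol synthase and dihydroflavonol 4-reductase after it or beside it, and glucosyltransferases finish the products. In leaves, quercetin-type flavonols are known as antioxidants and as part of the screen against strong light. Which of the 4 water lily genes encode an active enzyme is not known from these data.

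The libraries were made from wild-type leaves of container-grown plants. *N. micrantha* is viviparous, which means that plantlets form on its leaves, and *N. colorata* is not. At stage 1 the leaves were under water, fully rolled and 1 to 2 cm long, and at stage 2 they were still rolled and submerged at 4 to 6 cm. At stage 3 they were partly unrolled with the tip at the water surface, and at stage 4 they were fully unfolded, with the mark of vivipary in *N. micrantha* only. There are 8 groups (L1 to L4, X1 to X4), with 2 libraries in each. With 2 libraries in a group, groups can fail to overlap by chance. How many of all genes show no overlap was not counted. According to the methods of the study a library holds leaves of several plants, and every mean ± SD is over n = 2. The same methods give more biological repeats than the 2 libraries available for each group. Stage, leaf size and position in the water cannot be told apart, and in whole leaves fewer cells of a type and less RNA per cell cannot be told apart either.

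The values are FPKM, which is the number of reads divided by gene length and by the reads of the library, and the whole reads behind every value could be recovered. The L libraries held 37118842 to 51396582 reads on genes and the X libraries 24815135 to 31440253. The paper lists overlapping ranges of cleaned reads for the species. Why fewer reads lay on genes in *N. micrantha* was not tested. The recovered gene lengths were 2209 bases for NC7G0277740, 4631 for NC7G0277620, 4053 for NC7G0277710 and 1908 for NC7G0277610. FPKM is per length, so levels of the copies can be compared with each other as far as these lengths hold. Reads that match more than 1 copy were not tested, nor was the fit of the reads of either species to these gene models. Of 12 photosynthesis and antenna protein genes used to check the tissue, 6 reached 1 FPKM in every library, and the antenna protein gene ranged from 95.5 to 668.7 FPKM.

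One copy supplied most of the summed FPKM of the 4 labelled genes in both species. NC7G0277740 was the first of the 4 genes in all 16 libraries, at 11.2 to 83.1 FPKM in *N. colorata* and 16.6 to 44.7 FPKM in *N. micrantha*. The second copy differed between the species. It was NC7G0277620 in 8 of 8 L libraries and NC7G0277710 in 8 of 8 X libraries. NC7G0277610 came last in all 8 L libraries and in 6 X libraries, and in the other 2 X libraries NC7G0277620 was last.

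**Figure D1:**
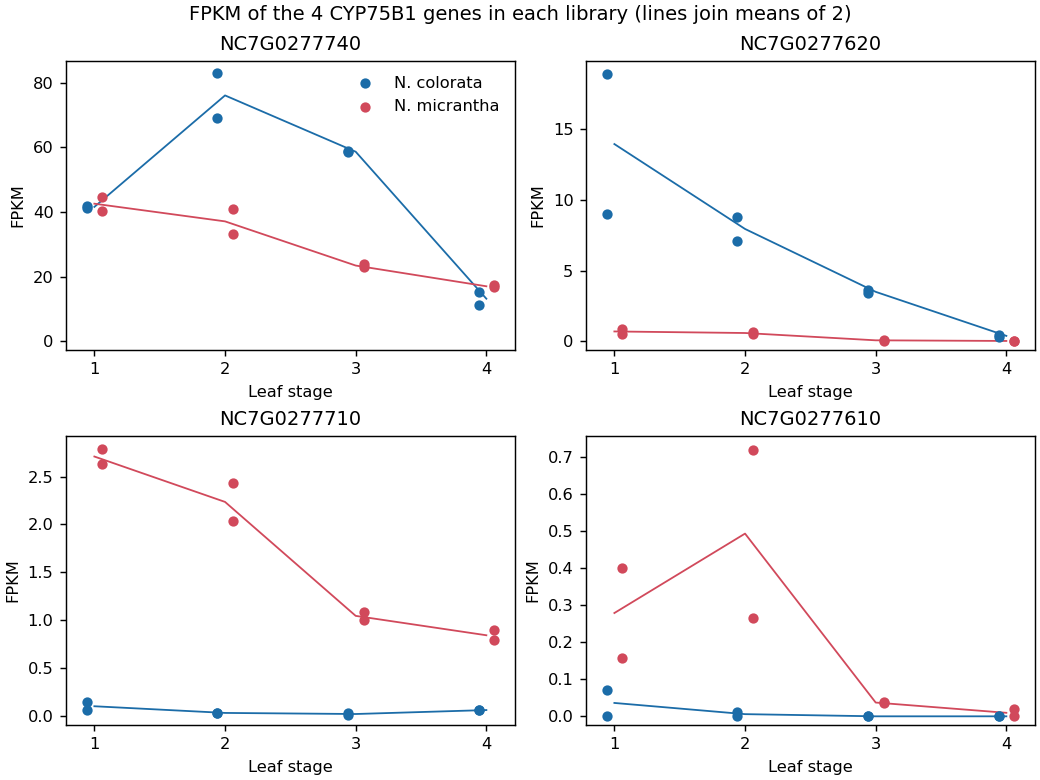
FPKM (y axis, a separate scale for each gene) of the 4 CYP75B1 genes at leaf stages 1 to 4 (x axis), with 1 point per library and lines joining the means of 2 libraries. NC7G0277740 is high in both species, NC7G0277620 is high in *N. colorata*, and NC7G0277710 and NC7G0277610 are high in *N. micrantha*, the last at 0.722 FPKM or less.

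As a share of the summed FPKM of the 4 genes, NC7G0277740 took 75.3% ± 9.45 in L1, 90.4% ± 2.39 in L2, 94.3% ± 0.193 in L3 and 96.8% ± 0.247 in L4. NC7G0277620 took most of the rest in *N. colorata*, with 24.4% ± 9.28 in L1, 9.58% ± 2.40 in L2, 5.62% ± 0.218 in L3 and 2.75% ± 0.328 in L4. Its share was therefore lower at each later stage, and the 2 libraries of each stage did not overlap with those of the next. The L1 libraries differed most from each other, at 17.9% and 31.0%. As a share of reads, not per length, NC7G0277620 held 31.3% and 48.4% in these libraries, against 68.5% and 51.1% for NC7G0277740.

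In *N. micrantha* NC7G0277710 took the second place. NC7G0277740 took 92.0% ± 0.918 in X1, 91.7% ± 1.50 in X2, 95.3% ± 0.185 in X3 and 95.1% ± 0.255 in X4. NC7G0277710 took 5.88% ± 0.588, 5.53% ± 0.0166, 4.27% ± 0.320 and 4.72% ± 0.239 at the same stages, against at most 0.546% in any L library. NC7G0277620 reached at most 1.99% in an X library and NC7G0277610 at most 1.96%. The distance between the first and the second copy was smallest in L1, where NC7G0277740 was 2.21 and 4.59 times NC7G0277620 in the 2 libraries, and widest in L4, at 32.4 and 38.5 times. In *N. micrantha* NC7G0277740 was 14.5 to 23.6 times NC7G0277710.

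**Figure D2:**
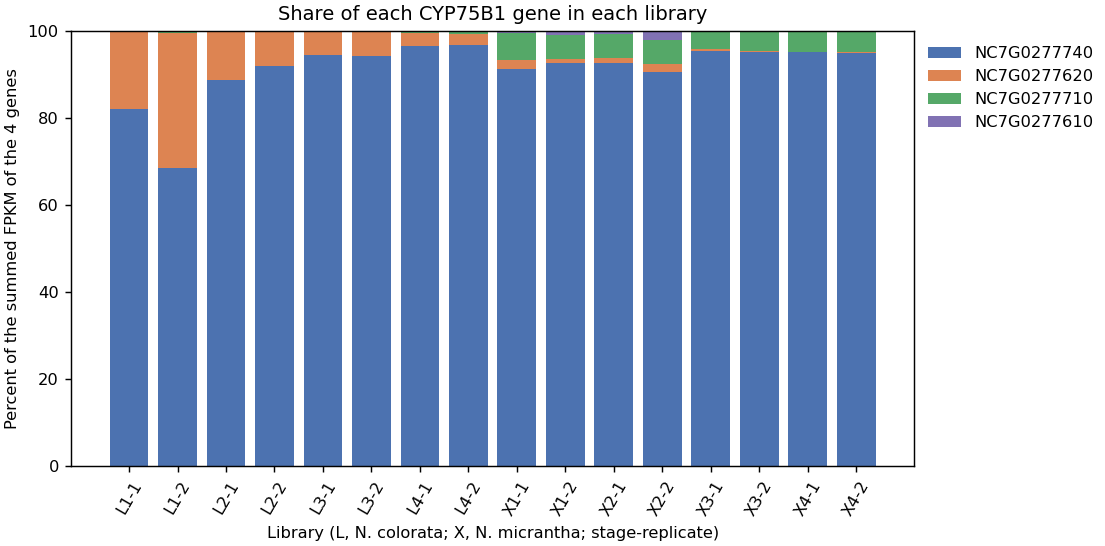
Percent of the summed FPKM of the 4 CYP75B1 genes (y axis) taken by each gene in each of the 16 libraries (x axis), stacked to 100. NC7G0277740 fills 68.6% or more of every bar, and the remainder is mostly NC7G0277620 in *N. colorata* and mostly NC7G0277710 in *N. micrantha*.

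The summed FPKM of the 4 genes, which NC7G0277740 dominates, was 55.7 ± 7.36 in L1, 84.0 ± 8.77 in L2, 62.2 ± 0.441 in L3 and 13.6 ± 2.93 in L4. In *N. micrantha* the sum was 46.2 ± 2.85, 40.4 ± 5.17, 24.6 ± 0.472 and 17.9 ± 0.609 at stages 1 to 4. The sum was lowest in the unfolded leaf in both species. It was lower in *N. micrantha* at stages 1 to 3 and higher at stage 4. The order at stage 4 is given for these 4 genes only. NC7G0277700 (3.14 and 3.06 FPKM in L4, 0.134 and 0.347 in X4) and NC6G0252470, both described below, are not in the sum. Both were higher in L4 than in X4. These sums and shares are descriptions and were not tested.

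The species were compared gene by gene with limma on log2(FPKM + 1), in 1 fit of all libraries over 18160 genes, and a gene is called where the Benjamini-Hochberg adjusted p is under 0.05 and the log2 fold change is at least 1 in size. Positive values are higher in *N. micrantha*. Differences between the species were common. At stage 1, 28.0% of the tested genes were called (7.56% with the higher level in *N. micrantha* and 20.4% with the lower), at stage 2 25.3% (6.18% and 19.1%), at stage 3 28.8% (6.57% and 22.2%), at stage 4 31.3% (12.3% and 19.0%), and for the mean of the stages 24.1% (5.89% and 18.2%). Of the 3 tested CYP75B1 genes, 1 was called higher and 1 lower at stage 1, 1 higher and 2 lower at stage 2, 2 lower at stage 3 and none at stage 4. For the mean of the stages 1 was called higher and 1 lower. With so few genes and such a background, these counts are not a result about the group, and the values of each gene are given instead.

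The split between higher and lower calls depends in part on how the libraries are scaled. Over the tested genes the log2 fold change had a median of −0.23, −0.18, −0.30 and 0.00024 from stage 1 to stage 4, and median-ratio scaling moved it to −0.07, −0.04, −0.09 and −0.0096. At stage 3 the share of calls that were higher in *N. micrantha* went from 22.8% to 35.0% with that scaling. In the comparison of L4 with L1 the share of higher calls went from 43.7% to 54.1%.

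NC7G0277740, the main copy, was lower in *N. micrantha* at stages 2 and 3 and was not called at stage 1 or in the unfolded leaf. In L1 it stood at 41.4 and 41.8 FPKM and in X1 at 40.4 and 44.7. In L2 it stood at 69.0 and 83.1 FPKM, against 40.9 and 33.3 in X2. In L3 both libraries were at 58.4 and 58.8 FPKM, against 23.8 and 23.1 in X3. In L4 it stood at 15.1 and 11.2 FPKM, against 16.6 and 17.4 in X4. The libraries of the species thus overlapped at stage 1 and did not overlap at the other stages.

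The mean of NC7G0277740 was 2.05 times higher in *N. colorata* at stage 2 and 2.50 times at stage 3. The log2 fold changes were −1.02 (SE 0.16, adjusted p 0.00030) at stage 2 and −1.29 (adjusted p 4.4e-05) at stage 3. The stage 2 call is close to the threshold. It was lost without L2 replicate 2 (−0.89), without X2 replicate 2 (−0.87) and with median-ratio scaling (−0.85), and the call at stage 3 held in each of these. At stage 1 the difference was 0.03, with a 95% confidence interval from −0.32 to 0.38. At stage 4 it was 0.36, with an interval from 0.0073 to 0.71 and an adjusted p of 0.079, so it was not called.

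The stage course of NC7G0277740 was tested on its own. In *N. colorata* it was 0.85 higher on the log2 scale in L2 than in L1 (adjusted p 0.022), short of the fold threshold, and the step from L2 to L3 was −0.36 (adjusted p 0.11). From L3 to L4 it fell 4.46-fold in mean FPKM (log2 fold change −2.09, SE 0.16, adjusted p 3.0e-06). In *N. micrantha* no single step was called, with log2 fold changes of −0.20, −0.63 and −0.44, and from X1 to X4 the gene fell 2.50-fold in mean FPKM (−1.27, adjusted p 7.5e-05). From L1 to L4 the fall was 3.16-fold (−1.60, adjusted p 5.4e-06). Across all tested genes, 1.89% were called between L2 and L1, 14.0% between L3 and L2, 1.62% between X2 and X1, 11.5% between X3 and X2 and 14.0% between X4 and X3. Genes called lower made up 9.49% from L3 to L4, 19.7% from L1 to L4 and 9.65% from X1 to X4.

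The species difference of NC7G0277740 itself changed with the stage. At stage 3 it was 1.32 lower on the log2 scale than at stage 1 (SE 0.23, adjusted p 0.0064), in a comparison where 5.37% of the tested genes were called. At stage 2 the change against stage 1 was −1.05 (adjusted p 0.070) and was not called, beside 0.628% of the genes called. Leaving out 1 library gave −1.19 to −0.91. The change was called without X1 replicate 1 (−1.12) and without X2 replicate 1 (−1.19). At stage 4 the change against stage 1 was 0.33 (adjusted p 0.29), beside 24.9% of the genes called.

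**Figure D3:**
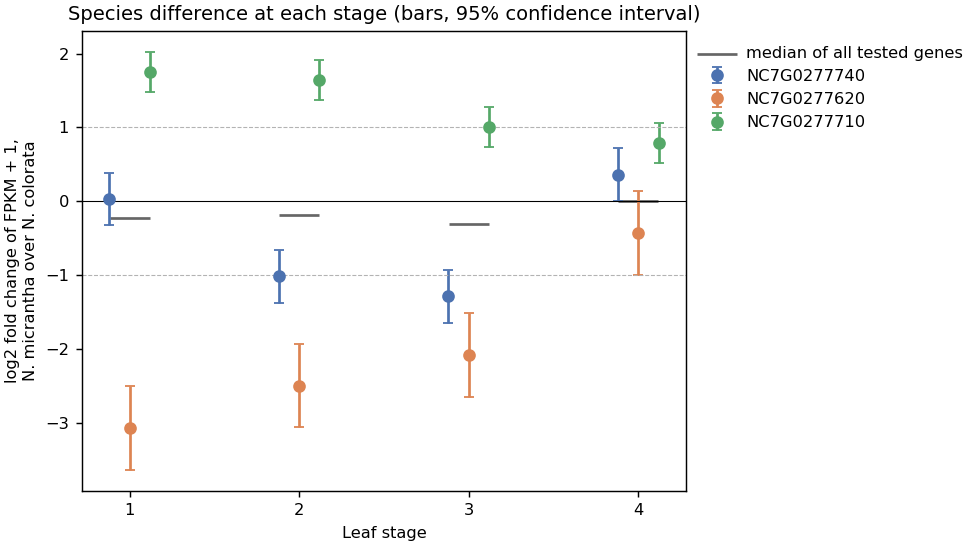
Log2 fold change of FPKM + 1, *N. micrantha* over *N. colorata* (y axis), at leaf stages 1 to 4 (x axis) for the 3 tested CYP75B1 genes, with 95% confidence intervals from limma. Grey bars mark the median of all tested genes and dashed lines the fold threshold of 1. NC7G0277620 runs from −3.07 to −0.43, NC7G0277710 from 1.75 to 0.79, and NC7G0277740 crosses from 0.03 to −1.29 and back to 0.36.

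NC7G0277620, the second copy of *N. colorata*, was lower in *N. micrantha* and fell as the leaf developed. In L1 it stood at 9.02 and 18.9 FPKM, from 2147 and 3801 reads. In L2 the values were 8.78 and 7.11 FPKM, in L3 3.38 and 3.61, and in L4 0.468 and 0.291, the last from 87 and 58 reads. In X1 it stood at 0.879 and 0.505 FPKM, in X2 at 0.488 and 0.676, and in X3 at 0.0903 and 0.0390. In X4 it was at 0.0078 and 0.0323 FPKM, which is 1 and 4 reads. At every stage both L libraries were above both X libraries, and no X library reached 1 FPKM.

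The mean of NC7G0277620 was 20.2 times higher in L1 than in X1, 13.6 times at stage 2, 54.0 times at stage 3 and 18.9 times at stage 4. On the log2(FPKM + 1) scale, which understates ratios of low values, the differences were −3.07 (SE 0.26, adjusted p 1.6e-06), −2.50 (adjusted p 9.5e-06) and −2.08 (adjusted p 4.3e-05) at stages 1 to 3. At stage 4 the difference was −0.43 (adjusted p 0.18) and was not called. With a pseudocount of 0.1 it was −1.98 (adjusted p 0.0013), and with voom on the recovered reads −4.16 (adjusted p 0.0030), both called. The ratio at stage 4 rests on 145 reads in L4 and 5 in X4, and counting error alone gives it a 95% interval from 7.93 to 59.2.

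NC7G0277620 fell with leaf stage in *N. colorata*, and in *N. micrantha* the call depends on the scale. In *N. colorata* the mean fell 36.8-fold from L1 to L4 (log2 fold change −3.36, SE 0.26, adjusted p 7.8e-07) and 9.21-fold from L3 to L4 (−1.71, adjusted p 0.00043). The earlier steps were −0.66 and −0.99 and were not called. The step from L1 to L2 was −1.16 and called without L1 replicate 1, and −0.17 without L1 replicate 2. The step from L2 to L3 was called with a pseudocount of 0.1 (−1.16), with voom (−1.18), without L2 replicate 2 (−1.12) and without L3 replicate 2 (−1.02). In *N. micrantha* the mean FPKM was 34.5 times lower in X4 than in X1. That change was −0.72 on the log2(FPKM + 1) scale, with an adjusted p of 0.045 and under the fold threshold. It was called with a pseudocount of 0.1 (−2.69) and with voom (−5.05), and so was the step from X2 to X3 (−2.05 and −3.18).

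Whether the species difference of NC7G0277620 changed with the stage depends on the scale. On log2(FPKM + 1) the difference at stage 4 was 2.64 smaller in size than at stage 1 (SE 0.37, adjusted p 0.00040), and with a pseudocount of 0.1 it was 2.12 smaller (adjusted p 0.015). On the reads with voom the change was 0.09 (adjusted p 0.96). The voom log2 fold changes themselves were −4.26 at stage 1 and −4.16 at stage 4. In FPKM, the gap between the species narrowed from 13.9 against 0.692 to 0.379 against 0.0201.

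NC7G0277710, the second copy of *N. micrantha*, showed the opposite species difference at a lower level. In *N. colorata* it lay between 0.0133 and 0.148 FPKM, with 2 to 26 reads in a library. In X1 it stood at 2.78 and 2.63 FPKM, in X2 at 2.43 and 2.04, in X3 at 1.01 and 1.09, and in X4 at 0.795 and 0.896. Every X library was above every L library, and the 8 X libraries held 89 to 338 reads.

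The mean of NC7G0277710 was 25.8 times higher in X1 than in L1, 63.3 times at stage 2, 43.6 times at stage 3 and 12.9 times at stage 4. The pooled reads behind these ratios were 603 against 39, 550 against 13, 239 against 8 and 186 against 22. The log2 fold changes were 1.75 (SE 0.12, adjusted p 3.6e-07) at stage 1 and 1.64 (adjusted p 6.5e-07) at stage 2. At stages 3 and 4 they were 0.999 (adjusted p 4.1e-05) and 0.79 (adjusted p 0.00020), below the fold threshold on this scale. With a pseudocount of 0.1 they were 3.21 and 2.51, and with voom 5.38 and 3.64, all called. The mean over the stages was 1.29 (SE 0.062, adjusted p 2.2e-09). The gene passed the filter only through *N. micrantha*, so these species p-values are not independent evidence.

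Within *N. micrantha*, NC7G0277710 fell 3.21-fold in mean FPKM from X1 to X4 (log2 fold change −1.01, SE 0.12, adjusted p 5.9e-05). This call sits at the threshold and was lost without X1 replicate 1 (−0.98), without X4 replicate 1 (−0.97) and with median-ratio scaling (−0.99). It was kept with a pseudocount of 0.1 (−1.57) and with voom (−1.68). Most of the change fell between X2 and X3 (−0.66, adjusted p 0.0030). In *N. colorata* no step was called, and the change from L1 to L4 was −0.05, with a 95% interval from −0.32 to 0.22. The change of the species difference against stage 1 depends on the scale. On log2(FPKM + 1) it was −0.75 at stage 3 (adjusted p 0.029) and −0.96 at stage 4 (adjusted p 0.0020), both under the fold threshold. At stage 3 voom turned the sign (0.58, adjusted p 0.70), and the ratio of mean FPKM was larger than at stage 1, as given above. At stage 4 the change was called with a pseudocount of 0.1 (−1.29, adjusted p 0.032) and without L1 replicate 2 (−1.01), and was not called with voom (−1.16, adjusted p 0.16).

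**Figure D4:**
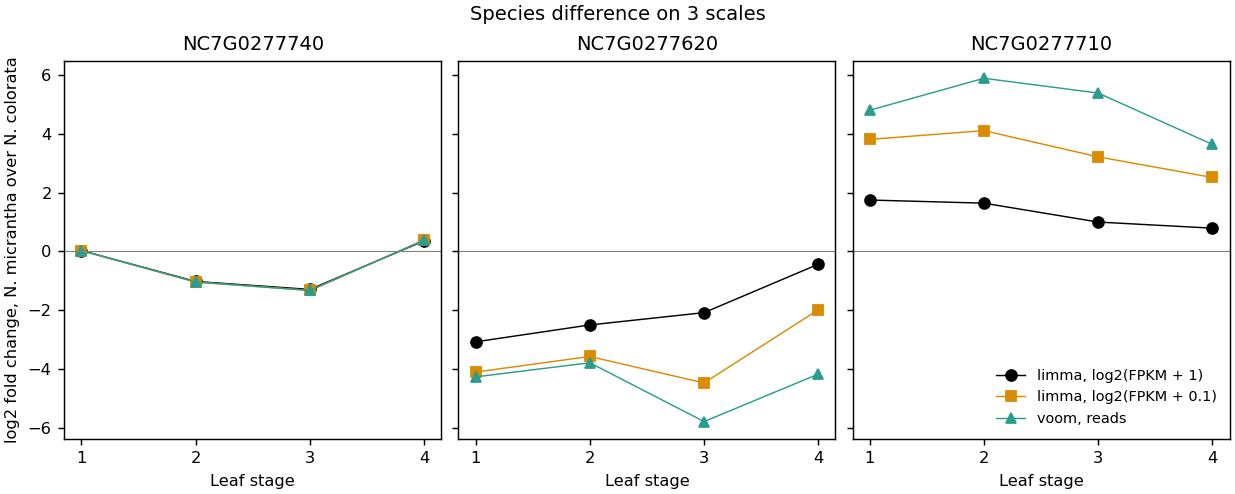
Log2 fold change, *N. micrantha* over *N. colorata* (y axis), at leaf stages 1 to 4 (x axis) for the 3 tested CYP75B1 genes under limma on log2(FPKM + 1), limma on log2(FPKM + 0.1) and voom on the recovered reads. The 3 lines coincide for NC7G0277740, and for NC7G0277620 and NC7G0277710 they keep their sign while the size at stage 4 ranges from −0.43 to −4.16 and from 0.79 to 3.64.

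NC7G0277610 was near the limit of detection in both species. In *N. colorata* it had 6 reads in L1 replicate 2, 1 read in L2 replicate 2 and 0 in the other 6 libraries. In *N. micrantha* it had 9 and 19 reads in X1, 16 and 40 in X2, 2 and 2 in X3 and 1 and 0 in X4. The highest value, in X2 replicate 2, was 0.722 FPKM. Over all stages this came to 7 reads in the L libraries and 89 in the X libraries. At stage 1 the pooled reads, relative to the library totals, were 8.08 times higher in *N. micrantha*, with a counting interval from 3.28 to 23.9. At stage 2 they were 84.2 times higher, on 1 read in *N. colorata*, with a counting interval from 14.5 to 3384. The 2 X2 libraries differed 2.71-fold in FPKM, a spread that the counting intervals do not cover. At stages 3 and 4 no ratio is given, because all L libraries were at 0 and no X library had more than 3 reads.

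In a fit without the filter, NC7G0277610 was not called in any comparison, with 0.30 at stage 1 and 0.55 at stage 2 on log2(FPKM + 1). It was called higher in *N. micrantha* at stages 1 and 2 with a pseudocount of 0.1 (1.45 and 2.38) and with voom (3.68 and 5.48), both without the filter and both chosen after the gene was seen to miss it.

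The profiles of the copies were also compared with each other within each species. Over the 8 X libraries, Pearson's r of log2(FPKM + 1) between NC7G0277740 and NC7G0277710 was 0.98, between NC7G0277740 and NC7G0277620 0.89, and between NC7G0277620 and NC7G0277710 0.94. Over the 8 L libraries the same pairs had r of −0.33, 0.75 and 0.31. The points share the 4 stages and their libraries, and NC7G0277710 had at most 26 reads in an L library, so these values are descriptions.

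A further gene with the annotation flavonoid 3′-monooxygenase, NC7G0277700, has an ID between those of NC7G0277620 and NC7G0277710 but does not carry the CYP75B1 label in the heat map. Its recovered length was 1077 bases. Its species difference had the direction of that of NC7G0277620, with 3.06 to 9.92 FPKM in the 8 L libraries and 0 to 0.527 in the 8 X libraries. Its fall with stage was smaller, at 2.73-fold in mean FPKM from L1 to L4 against 36.8-fold for NC7G0277620. Its log2 fold changes were −2.63, −2.88, −2.55 and −1.73 at stages 1 to 4, with adjusted p values of 2.0e-05 or less. In *N. colorata* it was at 8.47 ± 0.486 FPKM in L1 and 3.10 ± 0.0604 in L4 (log2 fold change −1.21, adjusted p 0.00028), and in L4 it was above NC7G0277620 in both libraries. Added to the sum, it took 13.3% ± 0.865 of the FPKM in L1 and 18.8% ± 3.01 in L4, against at most 1.86% in an X library. NC7G0277740 then held 87.0% ± 0.323 in L3 and 78.5% ± 2.71 in L4, so its share no longer rose at the last stage.

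The annotation list of flavonoid 3′-monooxygenase holds 4 genes: NC7G0277620, NC7G0277710, NC7G0277700 and NC6G0252470, whose ID has another prefix. The main copy NC7G0277740 is not on this list, and neither is NC7G0277610. The list comes from the study's table of differentially expressed genes in these libraries, so its direction is not independent evidence. For the mean of the stages 1 was called higher in *N. micrantha* and 3 lower, beside 5.89% and 18.2% of all tested genes. NC6G0252470 had a course of its own. It rose in *N. colorata* from 1.07 ± 0.391 FPKM in L1 to 13.1 ± 0.314 in L4 (log2 fold change 2.78, adjusted p 1.6e-05), while NC7G0277620 and NC7G0277740 fell. In *N. micrantha* it went from 1.71 ± 1.35 to 1.57 ± 0.350 FPKM (0.01, adjusted p 1.0), and the species difference changed by −2.77 between stages 1 and 4 (adjusted p 0.0010). In L4 its FPKM was close to that of NC7G0277740, at 13.2 ± 2.80. That likeness holds per length only. The recovered length of NC6G0252470 was 9535 bases, and it had up to 5306 reads in an L library. NC7G0277740 had 1343 and 1064 reads in L4.

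The other genes of the flavonoid pathway showed both directions. The pathway list of flavonoid biosynthesis holds 9 genes, 2 of them CYP75B1 copies, and was taken from the same table of the study. Of the other 7, 1 was higher in *N. micrantha* at stage 1 and 1 lower by the same call rule, 1 and 3 at stage 2, 0 and 5 at stage 3, and 2 and 5 at stage 4. Their median log2 fold changes were −0.54, −0.97, −2.32 and −1.66, beside the medians and the shares called over all tested genes given above. The dihydroflavonol 4-reductase gene NC2G0010340, which acts on the products of the 3′-hydroxylase, was higher in *N. micrantha* at stage 1 (12.5 ± 4.72 against 1.04 ± 0.364 FPKM, log2 fold change 2.69) and at stages 2 and 4 (2.34 and 2.25), and was not called at stage 3 (−0.54). The flavonol synthase gene NC9G0147080 was lower in *N. micrantha* at stages 2 to 4 (−2.08, −1.59 and −2.08). The hydroxycinnamoyltransferase gene NC3G0226660, of the branch to lignin precursors, was at 29.6 ± 14.0 FPKM in L1 and listed at 0 in both X1 libraries.

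**Figure D5:**
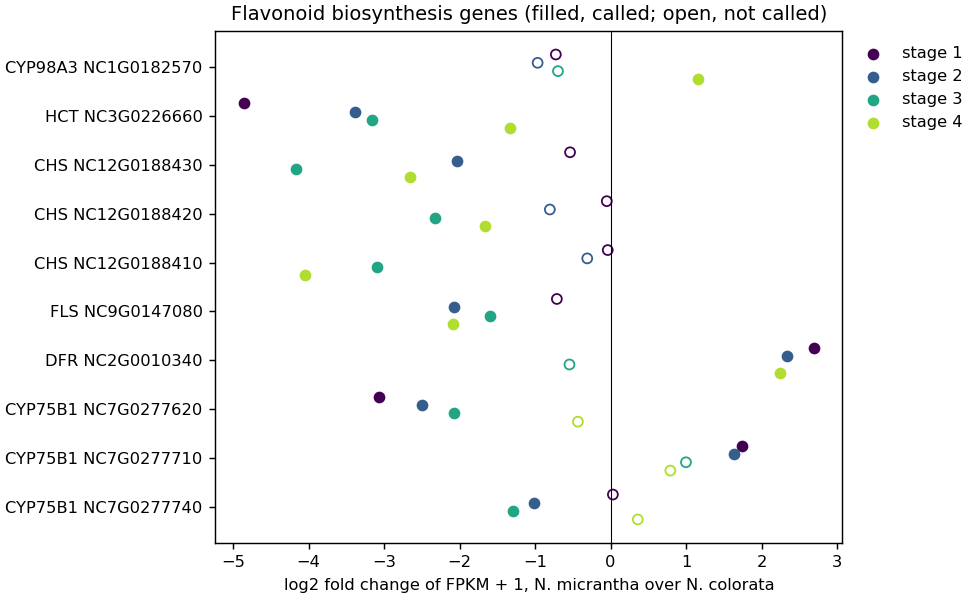
Log2 fold change of FPKM + 1, *N. micrantha* over *N. colorata* (x axis), for the 9 genes of the flavonoid biosynthesis list and NC7G0277740 (y axis), with a point for each leaf stage, filled where called. The gene NC2G0010340 and the copy NC7G0277710 lie to the right of 0 where called, the copy NC7G0277620 lies to the left, and the CHS, FLS and HCT genes lie to the left where called. HCT is the hydroxycinnamoyltransferase, CHS chalcone synthase, FLS flavonol synthase and DFR dihydroflavonol 4-reductase.

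Chalcone synthase, the entry enzyme of the pathway, also differed by copy. Of its 5 listed genes, 2 were called higher in *N. micrantha* at all 4 stages (NC12G0188480 and NC12G0188440), and 3 were called lower at stages 3 and 4. Of all tested genes, 6.18% to 12.3% were higher at a single stage by the same rule, and 22.2% and 19.0% were lower at stage 3 and at stage 4. The shares of all genes called at every stage, or at both stages 3 and 4, were not counted. From L1 to L4, 3 of the 5 rose and 2 fell, and from X1 to X4 2 rose and 2 fell. Among genes annotated as naringenin 3-dioxygenase, an enzyme whose products are substrates of the 3′-hydroxylase, 4 of 5 passed the filter. All 4 fell from L1 to L4 while 2 fell from X1 to X4. This list includes NC9G0147080, which is labelled flavonol synthase above, so its place in the pathway differs between the annotations. Of the 4 flavonol glucosyltransferase genes, 3 fell from L1 to L4 and 4 from X1 to X4. Over all tested genes, 15.3% were called higher and 19.7% lower from L1 to L4, and 12.3% higher and 9.65% lower from X1 to X4. These lists too were taken from the study's table of these libraries.

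The genes with neighbouring ID numbers did not all follow the CYP75B1 copies. Within 12 ID steps on either side of the copies, 34 other genes are in the table and 18 passed the filter. For the mean of the stages, 1 of the 18 was called higher in *N. micrantha* (NC7G0277580, 1.06) and 6 lower, among them NC7G0277700, beside 5.89% and 18.2% of all tested genes. Between the lowest and the highest CYP75B1 ID lie 10 other genes, of which 4 were listed at 0 in all libraries and 2 passed the filter, NC7G0277700 and NC7G0277660 (−1.38). From X1 to X4, 1 of the 18 was called higher and 0 lower. An ID number gives only an order, and positions in the genome were not used here.

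Each copy had genes with a very similar profile over the 16 libraries. For NC7G0277620 these were NC8G0213350 (Pearson's r 0.98), NC11G0115940 (0.98) and NC8G0217140 (0.98). NC8G0213350, which is annotated to the regulation of anthocyanin biosynthesis, was at 44.7 ± 15.3 FPKM in L1, 1.59 ± 0.709 in L4 and 2.49 ± 0.845 in X1. For NC7G0277710 they were NC9G0139150 (0.99), NC5G0161740 (0.98) and NC1G0105340 (0.98). NC1G0105340 is labelled phenylalanine ammonia-lyase, the first enzyme of the phenylpropanoid pathway, and was at 8.82 ± 2.86 FPKM in X1 and 2.34 ± 0.373 in X4, with reads in 1 of 8 L libraries. For NC7G0277740 the most similar were NC13G0196520 (0.96), NC8G0216230 (0.95) and NC2G0002470 (0.94), and for NC7G0277610 NC8G0279830 (0.92), NC8G0124720 (0.92) and NC8G0217960 (0.90). These genes were picked for their likeness among 18160, and the points share the same libraries.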

How the data were processed

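Leaf RNA of *N. colorata* and *N. micrantha* at 4 stages was sequenced as poly(A) libraries, and 16 libraries were used, grouped by their titles. The submitters' processing notes name CASAVA 1.8, fastp 0.20.0, HISAT2 2.1.0, Cufflinks 2.2.1, HTSeq 0.7.2 and DESeq, and the genome build is not given in the sources used here. The paper itself describes a de novo transcriptome assembly that covers both species. The deposited values are FPKM for 31475 genes, calculated by the authors. Gene lengths, library totals and whole reads were recovered from the FPKM steps, and 100% of values above 0 lay within 0.01 reads of a whole number. Libraries of a group were distinct (chi-square over degrees of freedom, 16.9 to 196).

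A gene entered the tests if 2 or more libraries reached 1 FPKM (18160 genes). The fit used R 4.3.3 and limma 3.58.1 (lmFit, eBayes with trend) on log2(FPKM + 1), with 8 group means. The libraries are not stated to come from separate cultivations, so p-values measure only the spread between these samples. Counting intervals are exact 95% binomial intervals and cover counting error only. Python 3.11.15 (scipy 1.17.1, pandas 2.3.3, numpy 2.4.6) made the tables, and matplotlib 3.10.9 the figures.

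Named genes were the 4 copies, the annotation lists, genes within 12 ID steps of 10, and the 3 genes most correlated with each copy. Members and lists were chosen with earlier results of these data known. Alternatives were pseudocount 0.1, no filter, median-ratio scaling, a replicate block, fits of the compared libraries only, voom on recovered reads, genes detected in both species only (15250), and leaving out each library. Annotations come from the study's tables. Sequences and coordinates of these genes were not used here.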

Additional observations from a re-analysis of the deposited data

Results flagged for a closer look

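By adjusted p under 0.05 alone, 4 species differences changed with the stage (limma interaction on log2(FPKM + 1)). Those of NC7G0277710 were under the fold threshold and were not called. Of all tested genes, 5.37% were called in the stage 3 interaction and 24.9% in the stage 4 interaction. For NC7G0277740 the species difference at stage 3 against stage 1 changed by −1.32, with *N. micrantha* below *N. colorata* in 2 of 2 libraries at stage 3 and the species overlapping at stage 1. For NC7G0277620 the change at stage 4 against stage 1 was 2.64, and on the reads with voom it was 0.09. For NC7G0277710 the change was −0.75 at stage 3 and −0.96 at stage 4, and with voom it was 0.58 and −1.16. The part that low read numbers play in the last 3 values was not tested.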

How the results depend on the processing

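The direction of the called species differences of the tested copies held in each alternative, but several calls at low levels depend on the scale. With a pseudocount of 0.1, NC7G0277620 at stage 4 (−1.98) and NC7G0277710 at stages 3 and 4 (3.21 and 2.51) were called, and likewise with voom on the recovered reads (−4.16, 5.38 and 3.64). Median-ratio scaling brought NC7G0277710 at stage 3 past the threshold (1.11) and NC7G0277740 at stage 2 below it (−0.85). Without the filter, NC7G0277610 was called at stages 1 and 2 and for the mean of the stages with voom (3.68, 5.48 and 3.35) and with a pseudocount of 0.1 (1.45, 2.38 and 1.10), both chosen after seeing the data. Where an alternative changed the sign of a difference, it was not called in that alternative or in the fit it was set against. For NC7G0277610 this was the step from L3 to L4 with voom (−0.066). For NC7G0277620 it was the interaction at stage 3 with a pseudocount of 0.1 (−0.37) and voom (−1.52). That interaction kept its sign and was called without L1 replicate 1 (1.49). For NC7G0277710 the interactions at stage 2 with a pseudocount of 0.1 (0.30) and voom (1.09) and at stage 3 with voom (0.58) changed sign. The cause was not tested.

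Leaving out 1 library gave a range of 0.97 to 1.03 for NC7G0277710 at stage 3, −1.16 to −0.87 for NC7G0277740 at stage 2 and −0.040 to 0.10 at stage 1, −0.25 to 0.070 for NC7G0277620 from X1 to X2, and −0.11 to 0.0039 for NC7G0277710 from L1 to L4. Only NC7G0277740 remained among genes detected in both species.

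As a mean over the 4 stages, NC7G0277740 held 89.2% of the summed FPKM in *N. colorata* and 93.5% in *N. micrantha*, NC7G0277620 10.6% and 0.841%, and NC7G0277710 0.188% and 5.10%. As shares of reads, not per length, these were 81.0% and 89.0%, 18.7% and 1.66%, and 0.316% and 8.89%. With NC7G0277700 in the sum, NC7G0277740 held 78.3% in *N. colorata*.

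Differences between the 2 libraries of a group, taken by number, had r of −0.15, −0.49, −0.01 and −0.13 between the species at stages 1 to 4. Whether the numbers mark a shared batch cannot be told from these values. A replicate block changed no call of a copy and gave 5055, 4583, 5218 and 5660 called genes at stages 1 to 4, and crossed numbers gave 5095, 4606, 5241 and 5691. Counts of all called genes fell by more than 1.5 times among genes detected in both species (5079 to 3284, 4597 to 2895 and 5228 to 3474 at stages 1 to 3, 4370 to 2585 for the mean, and 975 to 449 for the stage 3 interaction). The 343 calls from L1 to L2 became 222 without the filter and 0 in a fit of the libraries compared, and 27 to 534 without a library. The 294 calls from X1 to X2 became 0 in that fit and 161 to 852, the 2082 from X2 to X3 became 662, and the 2547 from L2 to L3 became 1685 without L3 replicate 1. The interactions at stages 2 and 3, at 114 and 975, became 46 and 409 with voom. The stage 2 interaction became 6 in a fit of the libraries compared and 26 to 714 without a library, and the stage 3 interaction 420 to 1247. Reads limit NC7G0277610, NC7G0277620 in X3 and X4, and NC7G0277710 in *N. colorata*.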
